A study of Mus musculus with 5 samples.

Results

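This account covers 105 mouse genes of endosome and vesicle traffic, out of 8637 genes measured on every array of a time course of macrophages in lipopolysaccharide (LPS). The 105 were taken by symbol alone. They carry the names of the Rab GTPases, Arf1 to Arf6, the Arf-like (Arl) GTPases, the sorting nexins (Snx), the vacuolar protein sorting genes (Vps) and the membrane fusion proteins Stx, Vamp and Snap, each followed by a number. The array held 110 such genes on 193 probes, and 105 of them on 185 probes had a value on all 5 arrays. The naming also took in 9 items that are not core traffic proteins of these families. Rab11fip1, Rab3gap1, Rab3ip, Rab5if and Vps9d1 bind or regulate Rabs, or are named after one, Arl2bp and Arl14ep are named as partners of Arl GTPases, and Rab10os and Rab11fip4os2 are opposite-strand transcripts.

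The cells were macrophages of C3H/ARC mice, differentiated from bone marrow in vitro with human CSF-1, the growth factor of the macrophage lineage. One array each was made of cells after 0, 0.5, 2, 7 and 21 h in LPS of S. minnesota, an outer membrane glycolipid of bacteria, at 10 µg per ml, where 0 h is without LPS. Each array also carried, in its second channel, a common RNA from whole embryos of C57BL6/J mice (day 17.5). The number of animals or cultures behind each array is not stated in the labels, and there were no replicates, so no test was possible and no difference below has a replicate check.

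Transport between membranes runs in cycles. Rab and Arf GTPases mark a compartment and recruit coats, motors and tethers, sorting nexins and the retromer bend endosomal membrane and sort cargo back to the Golgi or the surface, and ESCRT complexes sort cargo into the lumen of late endosomes. The tethers HOPS and CORVET then bring vesicles to late and early endosomes, and SNARE proteins (Stx, Vamp, Snap) fuse them. In macrophages the same machinery matures phagosomes, presents antigen, carries receptors such as Tlr4 to the surface and releases cytokines.

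The deposited values are log ratios, read here as base 10 and as macrophage over embryo. The labels state neither the base nor the direction. The direction is likely, since 10 measured macrophage markers had median deposited values of 0.69, 0.72, 0.77, 0.61 and 0.71 at 0, 0.5, 2, 7 and 21 h, against -0.61, -0.69, -0.62, -0.66 and -0.59 for 22 markers of whole embryo. Among the macrophage markers, Lyz2, Ctss, Fcgr1, Cd53, Laptm5 and Fcer1g stood above embryo at 0 h, while the single probes of Cd68, Fcgr2b, Marco and Tyrobp stood slightly below it. Had the base been 2, each log2 value below would be 3.32 times too large, and with the opposite direction every sign would turn. Values were turned to log2, set against the median of their array and averaged over the probes of a gene. A change is the log2 ratio after LPS minus the log2 ratio at 0 h, and a gene was counted as higher or lower at 2-fold or more. All 12 measured LPS response genes, among them Cxcl10, Il1a and Nfkbia, were at least 2-fold higher at 7 h, with a median change of 2.63. This list was chosen with earlier results of these data known, so the count is no independent check. In RNA of a whole culture, fewer cells of a type and less RNA per cell cannot be told apart. Markers of granulocytes and lymphocytes (9 genes) had median log2 ratios to embryo between -0.29 and 0.18 over the 5 arrays, but single genes moved apart. Elane and Ngp of granulocytes read 1.11 and 1.14 at 0 h, and 0.93 and -0.48 at 21 h. Mpo had a change of -1.25 at 21 h, while Cd79b of B cells had 2.41 at 7 h and 1.79 at 21 h. At 21 h 1 of the 9 was 2-fold higher (all genes 3.05%) and 2 were lower (all genes 1.45%). The part of such cells in the changes below was not tested.

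The 0.5 h and 2 h arrays held many high values that followed the probe numbering. Of 207 runs of 96 consecutive probe numbers, 94 had at least 10% of their probes past 2-fold upward at 0.5 h or at 2 h, and these are called affected runs. The members have 57 probes inside them and 128 outside. For 25 members every probe lies inside, for 58 every probe lies outside, and 22 have probes on both sides. Early values are therefore given with both sets of probes.

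Before any LPS, the traffic genes as a group stood close to their level in embryo. Their median log2 ratio at 0 h was 0.03, against -0.03 for all genes, and 56 of 105 stood above the array median. At least 2-fold above embryo were 5 members, Rab32, Snx24, Snx1, Snx10 and Snx2, where the share among all genes was 5.4%. At least 2-fold below embryo were 5, Stx8, Rab27b, Rab2a, Rab3ip and Snx7, against 7.06% of all genes. The members' shares thus lay near those of all genes in both directions.

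The sorting nexins gave most of the high ratios. Snx1 and Snx2 are the membrane-bending partners of the retromer. Snx1 had log2 ratios of 1.30, 1.72, 1.24, 1.11 and 1.43 at 0, 0.5, 2, 7 and 21 h, on 1 probe in an affected run. Snx2, over 3 probes, had 1.24, 1.20, 0.64, 1.45 and 0.61. Snx5, which pairs with them, had 0.76, 0.92, 0.41, 0.36 and 0.57 over 6 probes. A Snx5 probe outside the runs read -0.35, 0.17, -0.88, -0.71 and -0.15. Snx6, a close relative of Snx5, had 0.31, 1.06, 1.06, 0.89 and 0.57 over 3 probes, 2 of them in affected runs. The probe of Snx6 outside the runs read 0.03, 0.27, -0.39, 0.18 and -0.86, so its sign at 2 h and 21 h depends on the probe set. The mean ratios of Snx1, Snx2 and Snx5 lay above 0 on every array, though not every probe of Snx2 and Snx5 did. Snx7, a relative that pairs with Snx4 in recycling, lay below embryo throughout at -1.02, -0.72, -0.81, -0.75 and -0.69, on 1 probe. The 9 sorting nexins with a curved BAR domain had a median of the mean ratio of 0.60, with 6 of them above 0. Over all 105 members that median was 0.11, with 60 above 0, and over all genes it was -0.02. These means take in early values from the affected runs, where every probe of Snx1, Snx18 and Snx32 lies. The probe of Snx9 outside the runs read -0.06, 0.02, -0.23, -0.70 and 0.08, against a mean ratio of 1.21 over both probes. The median of the 9 was not computed on probes outside the runs.

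Rab32, a Rab of lysosome-related organelles, had the highest ratio at 0 h. Its single probe read 2.33, 3.80, 4.01, 2.61 and 2.46 in order of time, a 5.04-fold excess over embryo before LPS. It lies in an affected run, and its values at 0.5 h and 2 h stand apart from the other 3, which lie within a narrow band. Under quantile normalization its change from 0 h was -1.14 at 0.5 h and -1.73 at 2 h, so its early direction turns with the scaling. Its relative Rab38, also of lysosome-related organelles, read -0.42, -0.41, -0.42, -0.25 and -0.37. Rab7, the Rab of late endosomes and of phagosome maturation, read 0.65, 0.77, 0.37, 0.70 and 0.67. Rab5c of early endosomes read 0.64, 0.56, 0.84, 1.24 and 1.02. Both stood above embryo on each array.

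At the low end, Stx8, a SNARE of late endosomes, had log2 ratios of -1.55, -1.46, -1.41, -2.12 and -2.22. It was the lowest member by its mean ratio and the only syntaxin at least 2-fold below embryo at 0 h. Stx7, its partner in late endosome fusion, averaged 0.27, 0.47, 0.51, 0.64 and 0.46, but its 3 probes gave 1.40, 1.09 and -1.69 at 0 h and so do not fix its ratio. Rab27b, a Rab of regulated secretion, read -1.45, -1.57, -1.02, -0.85 and -0.80, whereas its relative Rab27a, over 2 probes, read 0.22, -0.20, -0.31, -0.17 and -0.06. Rab2a, which acts between the endoplasmic reticulum and the Golgi, read -1.16, -1.33, -1.14, -1.47 and -0.90 over 2 probes. Rab3ip, an exchange factor that activates Rab8, read -1.20, -1.04, -1.72, -1.38 and -0.74. The neuronal SNARE Snap25 read -0.62, -0.68, -1.04, -0.85 and -0.79. Its widely expressed relative Snap23 read 0.37, 0.27, 0.60, 0.80 and 0.65. Markers of neurons and secretory granules (8 genes, Snap25 and Stx1a among them) had medians between -0.97 and -0.48.

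**Figure D1:**
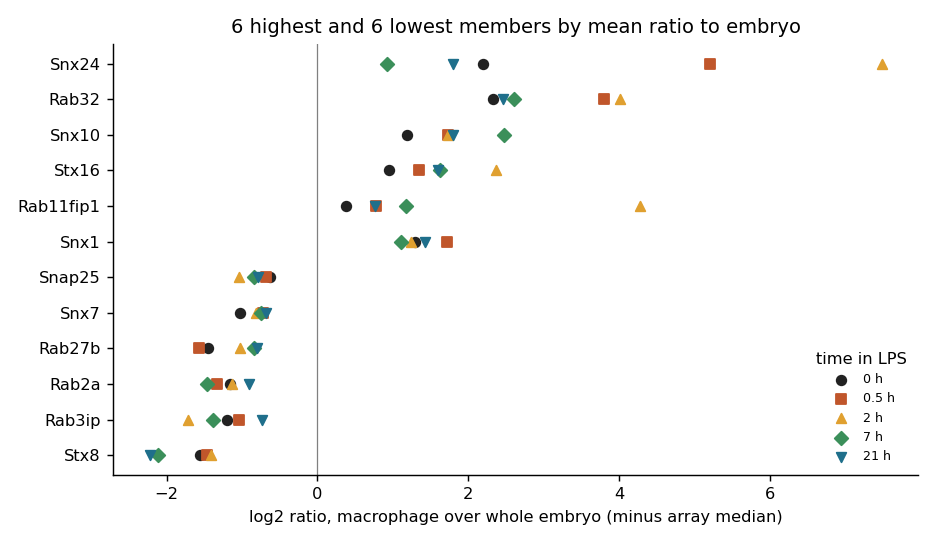
Log2 ratio of macrophage to whole embryo, minus the array median, on the x axis for the 6 members with the highest and the 6 with the lowest mean over the 5 arrays, with 1 symbol per array (0, 0.5, 2, 7 and 21 h). Snx24, Rab11fip1 and Rab32 spread widely through high values at 0.5 h or 2 h, while Snx1 and the 6 low members keep within about 1 log2 unit.

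In the first 2 h the high values of the traffic genes came almost wholly from the affected runs. At 0.5 h, 6 members were at least 2-fold higher than at 0 h (5.71%), against 5.95% of all genes, and 0 were lower, against 1.01%. At 2 h, 9 were higher (8.57%), against 12.4% of all genes, and 0 were lower, against 1.1%. Without the affected runs, 0 of the 80 members with a probe outside them were past 2-fold in either direction at 0.5 h or at 2 h. The shares of all genes outside the runs were then 1.28% higher and 0.984% lower at 0.5 h, and 4.22% higher and 1.55% lower at 2 h. Under quantile normalization the counts were 0 higher and 2 lower at 0.5 h, and 1 higher and 4 lower at 2 h. Over all 8637 genes this scaling gave 240 higher and 298 lower at 0.5 h, and 430 and 395 at 2 h.

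Probe by probe, at 0.5 h 9 of the 57 probes inside the runs lay 2-fold or more above 0 h, against 1 of the 128 outside. At 2 h the counts were 18 inside and 0 outside. The median change inside the runs was 0.33 at 0.5 h and 0.39 at 2 h, against 0.10 and -0.11 outside. The runs were picked for high early values, which itself widens this contrast. At 7 h the medians were -0.0018 inside and 0.09 outside, and at 21 h 0.12 and 0.04. The difference between these medians was small at the later times, but the lower members depended on the probe set. Of the 4 members 2-fold lower at 7 h, 2 were measured only in the runs and 1 on both sides. The 1 lower at 21 h was measured only in the runs. The 3 higher at 7 h and the 1 higher at 21 h had all their probes outside.

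**Figure D2:**
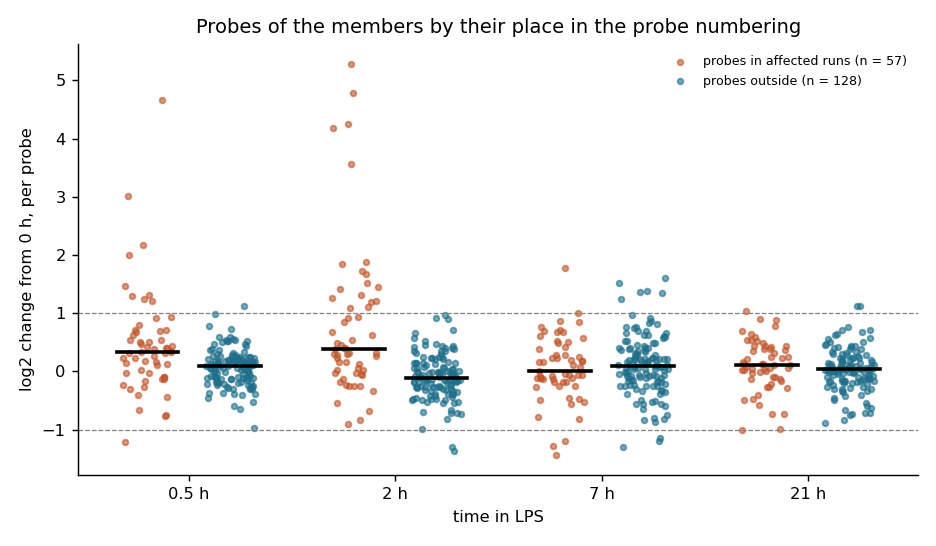
Log2 change from 0 h of each member probe (y axis) at 0.5, 2, 7 and 21 h in LPS, with probes in the affected runs (57, left of each pair) and outside them (128, right); black bars are medians and dashed lines 2-fold. At 0.5 h and 2 h the values above 2-fold lie almost all in the affected runs, and at 7 h and 21 h the sets cover a like range.

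Snx24, a small sorting nexin with little beyond its lipid-binding PX domain, shows the pattern at its strongest. Its single probe, in an affected run, read 2.20, 5.21, 7.49, 0.92 and 1.80, that is 39.1-fold above 0 h at 2 h and 2.42-fold below it at 7 h. Vps53, a subunit of the GARP and EARP tethers, has 6 probes, 5 of them in affected runs. Their changes at 0.5 h ran between -0.09 and 4.67, and the 1 probe of 4.67 carries the mean of 1.19. Snx9, a membrane-bending partner of dynamin in endocytosis, has a probe on either side. At 2 h the probe in a run had a change of 4.79 and the other -0.17, so the mean of 2.31 describes neither.

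Rab11fip1, an effector of the recycling Rab11, had changes of 3.57 and 4.24 at 2 h on 2 probes that both lie in affected runs. At 0.5 h these probes went apart, with 2.00 and -1.21. Stx3, a SNARE of exocytosis, was 2.48-fold higher at 0.5 h and 2.15-fold at 2 h, and Vps37b, a subunit of ESCRT-I, 2.38-fold and 3.32-fold. Both have 1 probe, in a run, and both were within 1.5-fold of 0 h at 7 h and 21 h. Stx16, a SNARE of the trans-Golgi network, was 2.66-fold higher at 2 h and Rab11fip4os2 2.40-fold, again on single probes in runs. Vamp4, the usual partner of Stx16, was just past 2-fold over 2 probes in runs, with changes of 1.88 and 0.12, and was at -0.25 under quantile normalization. Of the 6 members past 2-fold at 0.5 h, 4 were measured only in affected runs, and of the 9 at 2 h, 8.

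Outside the runs the early changes of the members were small. At 0.5 h the highest were Snx3, a cargo adaptor of the retromer (0.59), Snx17, which returns LDL-receptor family proteins and integrins to the surface (0.55), Snx10 (0.55) and Rab15 (0.52). The lowest were Rab27a (-0.42), the retriever subunit Vps26c (-0.38), Snx19 (-0.36) and Snap23 (-0.31). None reached 2-fold. At 2 h the highest were Arl2bp (0.90), Rab10os (0.66), Snx10 (0.55) and Rab10 (0.46), and the lowest Arl11, just short of 2-fold, Vamp8 (-0.73), Rab29 (-0.71) and the ESCRT-II subunit Vps36 (-0.68). Vamp8 is the SNARE that pairs with Stx7 and Stx8, and Rab29 acts at the Golgi and on stressed lysosomes. Snx10, Rab10os, Arl2bp and Arl11 had larger changes at 7 h than at 2 h, in the same direction.

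At 7 h, when the LPS response genes were all high, 3 members were at least 2-fold higher than at 0 h (2.86%), against 4.08% of all genes. Another 4 were lower (3.81%), against 3.16%. These shares lie near those of all genes. At 1.5-fold or more, 13 were higher, where all genes gave 11.6%, and 6 lower, where all genes gave 10.8%. The median change was 0.07, against -0.00029 for all genes, and the SD over members was 0.48, against 0.57 over all genes. Without centring the arrays the median of the members was -0.15 and that of all genes -0.22, so a median near 0 takes its sign from the scaling.

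**Figure D3:**
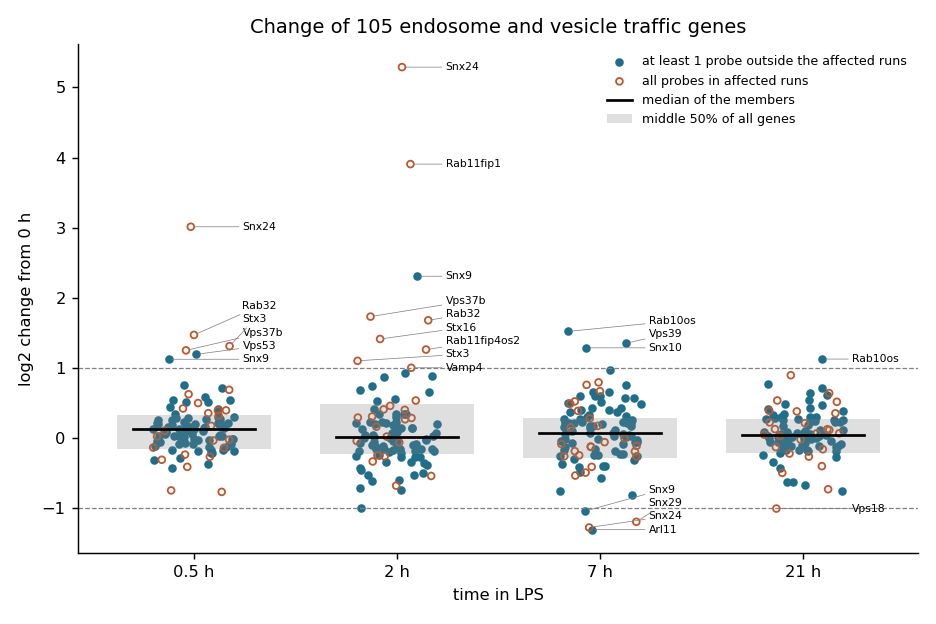
Log2 change from 0 h (y axis) of the 105 members at 0.5, 2, 7 and 21 h in LPS, with filled points for members that have a probe outside the affected runs and open points for the others; black bars are the members' medians, grey bands the middle 50% of all genes and dashed lines 2-fold. Members past 2-fold are named, and at every time the median of the members lies inside the grey band.

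The 3 higher members were Rab10os, Vps39 and Snx10, all on probes outside the affected runs. Vps39 is a subunit of HOPS, the tether of late endosomes and lysosomes. Its single probe read -0.16, -0.13, 0.06, 1.19 and 0.55 at 0, 0.5, 2, 7 and 21 h. The 7 h value was thus 2.56-fold above 0 h, and that at 21 h was 1.64-fold above it. The other HOPS-specific subunit, Vps41, went the other way at 7 h, with readings of 0.39, 0.22, -0.06, -0.36 and 0.36, or 1.68-fold lower at 7 h and near its 0 h value at 21 h. Among the core subunits shared with CORVET, Vps11 had a change of 0.48 at 7 h and Vps16 0.04. Vps18 read 0.07, -0.33, -0.46, -0.46 and -0.93, lower than 0 h on all 4 later arrays and 2.01-fold lower at 21 h, on a single probe in an affected run. The 5 measured subunits of one complex family therefore spread from -0.75 to 1.36 at 7 h.

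Snx10, a sorting nexin of endosomes needed for bone resorption by osteoclasts, read 1.18, 1.73, 1.74, 2.47 and 1.80. It was 2.44-fold higher at 7 h and 1.54-fold at 21 h. Its 2 probes, both outside the affected runs, gave changes of 0.97 and 1.60 at 7 h, and 0.12 and 1.12 at 21 h. Both stood above 0 h at 7 h, and only one of them clearly did at 21 h. Against the 0.5 h array the change at 7 h was 0.74, which is short of 2-fold.

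Rab10os had the largest change of the members at 7 h. It read -0.20, 0.05, 0.46, 1.32 and 0.93, which is 2.87-fold higher at 7 h and 2.18-fold at 21 h, on 1 probe. It is annotated as a transcript of the opposite strand that overlaps Rab10 in assembly GRCm38.p6, and the sources used here do not give the strand that the probe detects. The pair may therefore not be separable on the array. Rab10 itself, which carries Tlr4 to the surface of mouse macrophages, read -0.14, 0.13, 0.75, 0.38 and 0.35. Its probe outside the affected runs had changes of 0.46, 0.87 and 0.72 at 2, 7 and 21 h, and the probe inside 1.32, 0.16 and 0.25. The probe outside had its largest change at 7 h, as Rab10os did, and the probe inside at 2 h.

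The 4 lower members at 7 h were Arl11, Snx24, Snx29 and Snx9. Arl11, an Arf-like GTPase that in mouse macrophages binds the kinase ERK and favours its activation by LPS, read 0.77, 0.86, -0.23, -0.54 and 0.01. It was 2.47-fold lower at 7 h and 1.69-fold at 21 h, on 1 probe outside the affected runs. The readings at 0 h and 0.5 h were close, and the 3 later ones all lay below both. Snx29 read -0.17, -0.91, -0.85, -1.36 and -0.33, on 1 probe in an affected run, and was 2.29-fold lower at 7 h. Against the 0.5 h array its change at 7 h was only -0.45. Snx9, at -1.04, averages a change of -1.44 on its probe in a run and -0.64 on the other, so outside the runs it did not reach 2-fold.

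The regions around the transcription starts of Snx10, Rab10os and Arl11 are shown because these genes had a large change at 7 h on probes outside the affected runs and a promoter sequence at hand. The sequences are from RefSeq (assembly GRCm38.p6), 250 bases before to 50 after the start, 5′ to 3′ on the plus strand. Capitals mark matches, on either strand, to 6 motifs: AP-1 (TGANTCA), the cyclic AMP response element (TGACGTCA), PU.1 (GAGGAA), the E-box (CACGTG) and, by name, the interferon-stimulated response element and NF-kappaB. Snx10 has 3 annotated starts, and the one printed was picked for its AP-1 match. Of the others, one has a PU.1 match and the other a PU.1 and an interferon-stimulated element match, and neither has AP-1.
Snx10, chr6:51523834-51524133: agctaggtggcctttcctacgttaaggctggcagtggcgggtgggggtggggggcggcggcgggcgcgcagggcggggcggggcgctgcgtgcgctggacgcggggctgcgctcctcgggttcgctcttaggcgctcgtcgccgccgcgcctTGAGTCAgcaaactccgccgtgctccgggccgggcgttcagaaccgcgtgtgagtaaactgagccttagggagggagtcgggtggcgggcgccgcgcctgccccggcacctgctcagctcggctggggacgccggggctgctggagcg
Rab10os, chr12:3235541-3235840: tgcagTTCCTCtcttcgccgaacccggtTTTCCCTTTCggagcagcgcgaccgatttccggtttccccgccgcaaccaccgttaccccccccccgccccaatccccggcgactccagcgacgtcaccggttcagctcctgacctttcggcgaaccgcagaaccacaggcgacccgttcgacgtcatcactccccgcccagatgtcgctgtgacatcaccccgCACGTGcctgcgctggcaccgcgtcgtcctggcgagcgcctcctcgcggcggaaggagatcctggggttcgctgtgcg
Arl11, chr14:61309503-61309802: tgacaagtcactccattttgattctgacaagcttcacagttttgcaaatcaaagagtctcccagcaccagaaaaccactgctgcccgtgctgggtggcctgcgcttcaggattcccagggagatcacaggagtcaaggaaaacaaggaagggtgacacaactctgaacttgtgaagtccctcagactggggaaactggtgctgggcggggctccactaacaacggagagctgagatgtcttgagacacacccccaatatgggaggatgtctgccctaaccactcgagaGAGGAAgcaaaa
Snx10 holds 1 AP-1 match here. Rab10os holds the E-box, the interferon-stimulated element and a PU.1 match on the other strand, and Arl11 a PU.1 match downstream of its start. Over 32851 promoters of the same length, 7.81% held AP-1, 1.79% the cyclic AMP element, 28.3% PU.1, 7.15% the E-box, 3.44% the interferon-stimulated element and 8.46% NF-kappaB. The 105 promoters of the 82 members with one held them in 5.71%, 0.952%, 29.5%, 12.4%, 4.76% and 8.57%. A match is a description of the letters and shows no binding.

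**Figure D4:**
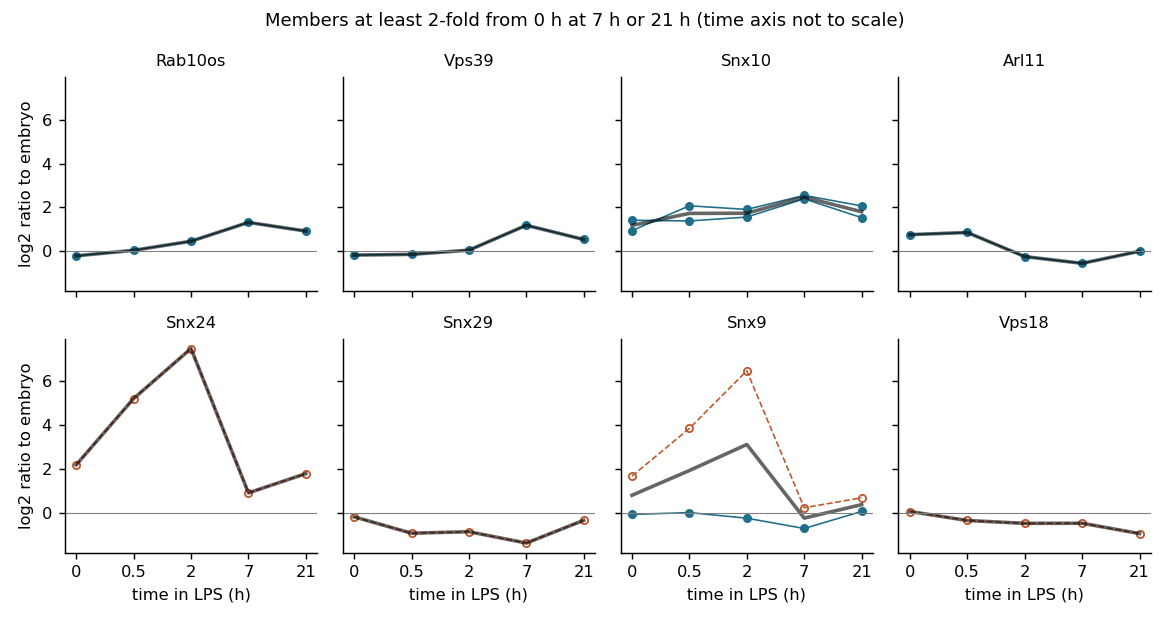
Log2 ratio of macrophage to embryo (y axis) against time in LPS (x axis, equal steps) for the 8 members at least 2-fold from 0 h at 7 h or 21 h; thin lines with points are single probes, filled and solid outside the affected runs, open and dashed inside, and the thick grey line is their mean. Rab10os, Vps39 and Snx10 peak at 7 h and Arl11 is lowest there, while Snx24 and 1 probe of Snx9 peak at 2 h.

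By 21 h, 1 member was higher by 2-fold, Rab10os (0.952%, against 3.05% of all genes), and 1 lower, Vps18 (0.952%, against 1.45%). Without centring the split was 0 higher and 1 lower, where all 8637 genes gave 190 higher and 222 lower. Under quantile normalization it was 2 higher and 5 lower, where all genes gave 324 higher and 391 lower. On the centred arrays, 7 members were higher by 1.5-fold or more, where all genes gave 9.12%, and 6 lower, where all genes gave 6.48%. The SD over members was 0.34, against 0.49 over all genes, and 92 of 105 members (87.6%) were within 1.5-fold of 0 h, against 84.4% of all genes. After Rab10os the highest were Snx18 (0.90), Rab1b (0.77), Vps39 (0.71), Stx16 and Rab27b (both 0.64). Snx18, a relative of Snx9 in endocytosis and autophagy, read -0.10, -0.14, 0.30, 0.66 and 0.79 on 1 probe in an affected run. Rab1b, which acts from the endoplasmic reticulum to the Golgi, read 0.29, 0.48, 0.44, 0.44 and 1.06, so its change appears on the 21 h array alone.

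After Vps18 the lowest at 21 h were Arl11 (-0.76), Rab11fip4os2 (-0.73), Stx8 (-0.67), Rab5if (-0.63) and Snx2 (-0.62). Outside the affected runs the lowest was Snx6, at -0.89 on 1 probe, against 0.26 over its 3 probes. Snx2 is the member with 3 or more probes that differed by at least 1.5-fold at 7 h or 21 h. Its probes gave -0.30, -0.84 and -0.72 at 21 h, all below 0 h, with an SD over probes of 0.29. At 7 h the same probes gave 0.63, 0.07 and -0.06. Rab5if read 0.38, 0.59, -0.01, -0.44 and -0.25, lower than at 0 h on the 2, 7 and 21 h arrays.

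None of the 33 Rab GTPases in the early and recycling, late endosomal, exocytic and Golgi groups was 2-fold from 0 h at 7 h or 21 h. With 4.08% of all genes higher and 3.16% lower at 7 h, and 3.05% and 1.45% at 21 h, a count of 0 among 33 is not far from the share of all genes. The 11 early and recycling Rabs had a median change of 0.21 at 7 h, with 9 of 11 above 0, and 0.11 at 21 h. The highest at 7 h were Rab17 (0.65) and Rab5c (0.60, 1.52-fold), and the lowest was Rab4a of fast recycling (-0.24). All genes had medians of -0.00029 at 7 h and 0.02 at 21 h, and -0.22 and -0.12 without centring. The signs of such small changes thus rest on the scaling. Rab11a, the Rab of the recycling endosome, had a change of 0.43 at 7 h, and its 6 probes gave values between 0.07 and 1.36, all above 0, with a mean of 0.70 over the 3 outside the runs. Rab11b, over 4 probes, was at 0.02, Rab14 at 0.17, Rab21 at 0.23, Rab22a at 0.39 and Rab35 at 0.21. In the late endosomal group the 7 h changes were 0.05 for Rab7, 0.22 for Rab9, which returns receptors to the Golgi, 0.28 for Rab32 and -0.07 for Rab29, with a median of 0.05. All 7 of that group were within 1.5-fold at both late times, as were 77.7% of all genes at 7 h and 84.4% at 21 h.

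In the exocytic group at 7 h, Rab8a stood at 0.20 over 3 probes, Rab10 at 0.52, Rab27b at 0.60 and Rab27a at -0.39, with a median of -0.01. Rab27a, which docks secretory lysosomes, averaged below 0 h on all 4 later arrays, with 0.5, 2, 7 and 21 h changes of -0.42, -0.53, -0.39 and -0.28. Its 2 probes gave -0.97 and 0.14 at 0.5 h, and -0.49 and -0.06 at 21 h. Rab3a and Rab3d of regulated secretion were at -0.05 and -0.01 at 7 h. In the group of the endoplasmic reticulum and Golgi, Rab1a stood at 0.32, Rab2a at -0.31 and Rab6a at -0.06 at 7 h. The 4 probes of Rab6a, a Rab of retrograde Golgi traffic, disagreed, with 7 h changes between -0.81 and 0.50 and a mean of -0.25 outside the runs.

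Of the Arf GTPases, which recruit coats at the Golgi and act in recycling at the surface, 4 of 5 stood above 0 h at 7 h. Their median was 0.51, against -0.00029 for all genes. Arf4 was at 0.66, Arf5 at 0.57, Arf6 at 0.51, Arf1 at 0.25 and Arf2 at -0.41. Arf6, the Arf of the plasma membrane and of phagocytosis, had 0.82 and 0.20 on its 2 probes. The 6 probes of Arf1 ran between -0.24 and 0.85, with a mean of 0.13 outside the runs. At 21 h all 5 were within 1.5-fold (all genes 84.4%), with a median of 0.09. Among the Arl group at 7 h, Arl2bp, which binds Arl2, was at 0.97 on average, with 1.24 and 0.70 on its 2 probes, and Arl2 itself at -0.49. Arl1, which recruits tethers to the trans-Golgi network, was at 0.04 and Arl14ep at -0.09.

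**Figure D5:**
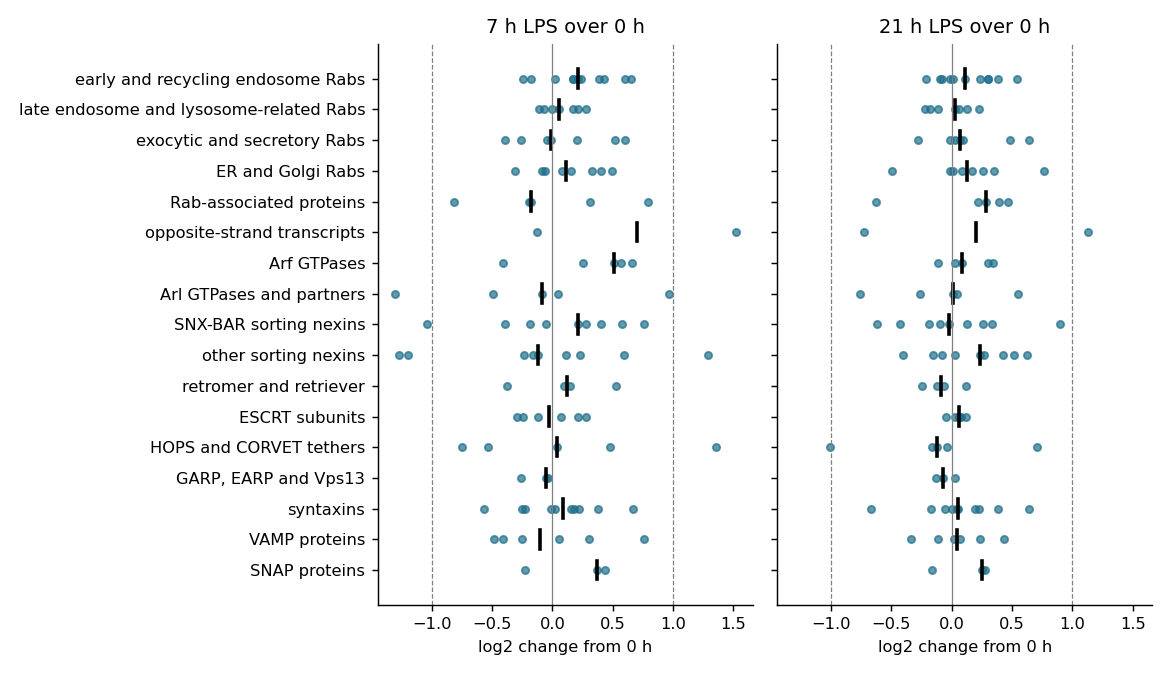
Log2 change from 0 h (x axis) at 7 h (left) and 21 h (right) of each of the 105 members (points), in 17 groups by role (rows), with the group median as a black bar and dashed lines at 2-fold. The group medians farthest from 0 are those of the opposite-strand transcripts, the Arf GTPases and the SNAP proteins at 7 h (0.70, 0.51 and 0.37). At 21 h the highest is 0.29, for the Rab-associated proteins. The points beyond 2-fold belong to single members.

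The changes of the sorting nexins at 7 h ran from -1.27 for Snx24, on a probe in an affected run, to 1.29 for Snx10. Outside the runs their lowest was -0.64, for Snx9. Apart from the members named above, Snx3 was at 0.60 over 2 probes, Snx6 at 0.58 over 3 (0.15 on its probe outside the runs), Snx4 at 0.40 and Snx1 at -0.19. Snx5 averaged -0.39, but its 6 probes ran from -1.20 to 1.37, with 5 of them below 0, so its change is not fixed by these probes. Of the retromer, which retrieves cargo from endosomes, Vps26a stood at 0.52, Vps26b at 0.15 (0.40 outside the runs) and Vps29 at 0.10 (-0.01 outside) at 7 h. Vps26c, its counterpart in the retriever complex, stood at -0.37 over 3 probes. The 6 ESCRT subunits were all within 1.5-fold of 0 h at 7 h and 21 h, with medians of -0.03 and 0.06. Of all genes 77.7% and 84.4% were so, and 6 genes are too few to read against those shares. Vps4b, the ATPase that takes the ESCRT polymer apart, was at 0.28 and 0.06. Vps53, Vps50 and Vps13b had 7 h changes of -0.05, -0.26 and -0.03, and the 1 probe of Vps53 outside the runs had -0.59.

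Among the SNAREs at 7 h, Vamp3 had the highest change and Stx8 the lowest, each on 1 probe. Stx16, at 0.67, and Vamp1, at -0.49, lay close to them. In mouse macrophages in LPS, Vamp3 on recycling endosomes takes up TNF carriers that bear Stx6, Stx7 and Vti1b. Vamp3 read 0.17, 0.68, 0.07, 0.93 and 0.60 on a single probe outside the affected runs, 1.69-fold higher at 7 h. Stx6 read 0.23, 0.02, 0.22, 0.26 and 0.28, which is nearly level, and Stx7 had a change of 0.37 at 7 h, with 0.76 and 0.75 on 2 probes and -0.38 on the third. Vti1b, which is not of the 105, was 2.05-fold higher at 7 h. Snap23, which pairs with syntaxins at the surface, had a change of 0.43 at 7 h, and all 3 of its probes were above 0, at 0.40, 0.71 and 0.20. Stx8 had -0.57, Vamp8 -0.25 and Vamp7, over 5 probes, 0.05. The probes of Vamp7 split by place. At 7 h the 2 in affected runs gave -0.47 and -0.57, and the 3 outside 0.21, 0.40 and 0.70, with a mean of 0.44, so the value near 0 averages opposite readings.

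Of the other syntaxins at 7 h, Stx12 of recycling endosomes was at 0.22, Stx17 of autophagosomes at -0.25, Stx5a of the Golgi at -0.01, Stx18 of the endoplasmic reticulum at 0.15 and Stx16 at 0.67. Vamp1 stood at -0.49, Vamp2 at 0.30 and Vamp4 at -0.41. The neuronal Stx1a and Snap25 stood at -0.23 and -0.22. Of the 19 SNAREs of the Stx, Vamp and Snap names, 0 were 2-fold from 0 h at 7 h (all genes 4.08% higher and 3.16% lower) or 21 h (3.05% and 1.45%), too few genes to read the count against those shares.

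The probes of one gene set the error that can be read from these arrays. Over the 45 members with 2 or more probes, the pooled SD over probes of the log2 change was 0.64, 0.78, 0.49 and 0.39 at 0.5, 2, 7 and 21 h. Over the 3015 genes with several probes it was 0.67, 0.97, 0.51 and 0.47. With only the probes outside the affected runs it was 0.36, 0.38, 0.47 and 0.34 over 32 members. All probes of a gene had the same sign in 25 of 45 members at 7 h and 14 of 45 at 21 h. The changes of Rab10os, Vps39 and Arl11 are each more than 2 times the 7 h spread outside the runs but rest on 1 probe each, as do those of 60 of the 105 members. These genes were picked for their large 7 h changes, so this comparison lends them no support. The spread over probes is technical and holds nothing of the variation between cultures.

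Other genes of the pathway, in 6 lists that hold no member, were counted in the same way. Of their 127 measured genes, 3.15% passed 2-fold upward at 7 h (all genes 4.08%) and 0.787% downward (all genes 3.16%). By 21 h 1.57% did so upward (all genes 3.05%) and 3.94% downward (all genes 1.45%). Of 24 clathrin and adaptor genes 0 were 2-fold higher and 0 lower at 7 h (median -0.10), and 0 and 1 at 21 h (median -0.13). Of 14 other ESCRT genes 0 were past 2-fold at either time (medians 0.18 and 0.19), and of 19 Arf regulators 0 (medians 0.01 and 0.17). Of 22 Rab regulators 1 was higher and 0 lower at both times (medians -0.01 and -0.02). Of 27 SNARE partners 1 was higher and 1 lower at 7 h, and 0 and 2 at 21 h (medians 0.04 and 0.09). Of 21 genes of recycling and endosomal lipid kinases 2 were higher and 0 lower at 7 h, and 1 and 2 at 21 h (medians 0.06 and 0.17).

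Single genes in these lists reached larger changes than most members. Tfrc, the transferrin receptor and classic cargo of recycling endosomes, read 0.79, 1.06, 1.02, -0.07 and -1.30 and so had a change of -2.09 at 21 h, on 1 probe in an affected run. Sort1, the sorting receptor sortilin, read -0.61, -0.37, -0.41, -0.53 and 0.97, a change seen on the 21 h array alone. Sec22b, a SNARE of traffic between the endoplasmic reticulum and the Golgi, had changes of -1.09 at 7 h and -1.35 at 21 h, and Rilpl2, an effector of Rab8 and Rab10, of 1.39 and 1.06. Each of these 3 has 1 probe outside the affected runs. Ehd1, which cuts recycling tubules, averaged 1.07 at 7 h with an SD over its 2 probes of 1.13.

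Other late changes in the lists lay on both sides of 0. Syngr1 and Itsn1, a synaptic-vesicle protein and an endocytic scaffold, had -1.47 and -1.14 at 21 h, both on probes in affected runs. The clathrin adaptor Dab2 had -0.93 at 21 h. Ap2s1, a subunit of the adaptor AP-2, read 1.40, 2.60, 8.01, 0.85 and 0.50, a 2 h change of 6.61 and a 21 h change of -0.91. Its relative Ap1s3, chosen after its values were seen, had 2.70 at 2 h and -0.67 at 21 h. Both probes lie outside the affected runs, so high 2 h values are not limited to those runs. Tbc1d1, a Rab GTPase-activating protein, had -0.93 at 21 h. Tbc1d5, which inactivates Rab7 at the retromer, had 0.79 at 7 h. The exchange factors Cyth3 and Psd4 had 0.57 and 0.90 at 7 h, and the arfaptin gene Arfip1 0.70. The ESCRT genes Hgs, Chmp1b and Chmp4c had 0.79, 0.68 and 0.58 at 7 h.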

How the data were processed

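RNA of macrophages at 5 times in LPS (1 array each) was set against whole-embryo RNA on two-colour arrays. Per the labels, total RNA was labelled indirectly with amino-allyl chemistry. The authors deposited a log ratio for each probe. How they normalized it is not given in the sources used. The authors' values were read as log10, from their size, and multiplied by 3.32 to give log2 values. The median of each array was subtracted, taken over the 18296 of 19828 probes measured on all 5 arrays, and no depth applies to arrays, whose number limits the precision. Of the probes, 14759 carried 1 gene symbol in the platform annotation, 170 several and 4899 were not listed there. Averaging the 13782 named, completely measured probes by symbol gave 8637 genes with pandas 2.3.3 and numpy 2.4.6 in Python 3.11.15. Arrays correlated pairwise at 0.635 to 0.882 over centred probes.

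The members and lists were chosen with earlier results of these data known, as were the affected runs. With 1 array a time, no test was made, and counts past 2-fold, medians and SDs over probes are descriptions. All comparisons share the 0 h array. Genes named are the 6 highest and 6 lowest members at 7 h and at 21 h and by mean ratio to embryo, the 4 highest and 4 lowest at 0.5 h and 2 h with all probes and outside the runs, members with 3 or more probes past 1.5-fold, members listed by role, and up to 3 genes of each pathway list. Others (members past 2-fold, close relatives and members with discordant probes) were chosen after their values were seen. Counting was checked on simulated data. Alternatives were other probe sets, no centring, quantile normalization, medians over probes, the 0.5 h array as baseline, log base 2, incomplete probes and updated symbols.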

Additional observations from a re-analysis of the deposited data

How the results depend on the processing

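The counts of members past 2-fold depended on the processing at the early times. Without the affected runs, with 80 members in place of 105, they were 0 higher at 0.5 h (against 6) and 0 at 2 h (against 9). At 7 h they were 4 higher (against 3) and 1 lower (against 4), and at 21 h 1 higher (against 1) and 0 lower (against 1). The member added at 7 h was Arl2bp, at 1.24 on its probe outside the runs. Shares of all genes outside the runs were not computed at 7 h and 21 h. Under quantile normalization the counts of members were 0 higher and 2 lower at 0.5 h, 1 higher and 4 lower at 2 h, and 2 higher and 5 lower at 21 h. Over all 8637 genes this scaling gave 240 higher and 298 lower, 430 and 395, and 324 and 391 at these times. Under quantile normalization the changes of Rab32 were -1.14 at 0.5 h and -1.73 at 2 h and that of Vamp4 at 2 h -0.25, opposite in sign to the values with all probes. Without centring, 0 members were higher at 21 h, against 190 of all genes. The median of all genes was then -0.22 at 7 h and -0.12 at 21 h. With the 0.5 h array as baseline the counts were 5 higher and 1 lower at 2 h, 8 lower at 7 h, and 0 higher and 5 lower at 21 h, and the change of Stx3 at 2 h was -0.21. Without the runs that of Snx9 at 2 h was -0.17. Read as log2, the counts were 0 higher at 0.5 h, 2 higher at 2 h, and 0 in each direction at 7 h and 21 h, since every change is then smaller by construction. Among members with 2 or more probes, a choice made after seeing the data, they were 2 higher at 0.5 h, 3 higher at 2 h, 1 higher and 1 lower at 7 h and 0 at 21 h, with fewer genes counted. No share over all genes was computed with the 0.5 h baseline, read as log2, or among genes with 2 or more probes. Those counts are therefore not read as results about the members. Beyond what holds by construction, the causes were not tested. Medians over probes, incomplete probes and updated symbols moved no count by over 1.5 times. All 7 members past 2-fold at 7 h remained so under quantile normalization and without centring. No paired analysis was possible because each time has 1 array.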

Other observations

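A further 5 genes of these names had a value on only some arrays and are outside all counts, each on 1 probe. Arl3, a GTPase of cilia, had log2 ratios to embryo of 0.43, 0.59, 0.52 and 0.52 at 0.5, 2, 7 and 21 h, and Rab24, linked to autophagy, -0.25, -0.27, -0.32 and -0.58, with no value at 0 h for either. Stx19 had 2.84 at 0 h, 2.71 at 2 h, 1.18 at 7 h and 2.54 at 21 h, a change of -1.66 at 7 h on a probe in an affected run. Vps35l, a subunit of the retriever complex, had 1.25 at 0 h, 4.10 at 0.5 h and 0.67 at 7 h. Vps45, which assists SNARE assembly at endosomes, had -0.49, -0.40, -0.08 and -0.43 at 0, 2, 7 and 21 h.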
